A study of Homo sapiens with 66 samples.

Results

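Immediate early genes are switched on within minutes when a growth factor or stress signal reaches the nucleus. The 10 members described here are EGR1, EGR2, EGR3 and EGR4, NR4A1, NR4A2 and NR4A3, IER2 and IER3, and SRF, taken by symbol from the 58721 genes counted. The EGR proteins are zinc finger transcription factors that bind GC-rich sites. The NR4A proteins are orphan nuclear receptors that act without a known hormone. IER3 modulates cell survival and ERK signalling, and IER2 is a small nuclear protein. SRF, the serum response factor, binds the CArG box and, with the ETS-domain partner ELK1 that ERK phosphorylates, is known to drive transcription of EGR1. MED23, a subunit in the tail of Mediator, the large coactivator complex that contacts RNA polymerase II, is known from mouse cells to bind phosphorylated ELK1. In melanoma with mutant BRAF the ERK pathway is constantly active.

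The study sequenced poly(A) RNA of A375, a line of BRAF-mutant human melanoma cells, in 66 libraries that form 22 groups of 3 replicates in 3 experiments, each its own batch in the labels. In the Mediator experiment, cells with guide 1 or guide 2 against MED23, MED12 or MED19, or with a control guide against GFP, were kept for 24 h with vemurafenib, which inhibits mutant BRAF, at 1 µM, or with DMSO. In the SOX10 experiment, MED23 knockout cells (guide 1) and cells with the GFP guide either overexpressed SOX10, a transcription factor of the melanocyte lineage, or carried an empty vector. In the HDAC3 experiment the groups were a knockout of both HDAC3 and MED23, a knockout of HDAC3, a knockout of MED23, and control cells. HDAC3 is a histone deacetylase that works within NCOR corepressor complexes. The labels give no treatment for the SOX10 and HDAC3 experiments and do not say whether knockout cells were clones or pools. The 3 control columns of the HDAC3 table carry the name GFP and were matched to the control samples by elimination, and every comparison with its control cells rests on that.

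Depth per library was 65.88 to 211.79 M counts in the Mediator experiment, 24.87 to 30.77 M with SOX10 and 58.84 to 106.19 M with HDAC3. Levels are given in CPM, counts scaled to the TMM-adjusted library size. Differences are log2 fold changes ± SE, tested by quasi-likelihood in edgeR, with p-values adjusted by Benjamini and Hochberg over all genes tested. A gene rose or fell where its adjusted p was under 0.05. The labels do not say that replicates were separate cultures, so p-values measure only the spread between libraries within groups, pooled over the experiment. In bulk RNA fewer expressing cells and less RNA per cell cannot be told apart. The targeted mRNA was lower in each knockout, with a log2 change of -1.12 for MED23, -2.04 for MED12 and -1.05 for MED19 in DMSO, and of -0.97 for HDAC3. SOX10 mRNA was higher by 0.19 in control cells and by 0.80 in MED23 knockout cells that overexpressed it. Of 8 melanocytic markers 7 exceeded 1 CPM in some library of the Mediator experiment and 6 in each of the others, with TYR below it throughout. Markers of other cell types summed to at most 2.91 CPM for 4 blood cell genes, 18.6 CPM for 4 epithelial genes and 28.2 CPM for 3 endothelial genes in any library.

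Promoter windows of 5 members are shown. Of the 7 members whose windows were searched, EGR1, EGR2 and SRF are those with a CArG box. NR4A3 is the one of these 7 with most cyclic AMP response half-sites. NR4A1, which fell with EGR1 in each Mediator knockout, is one whose searched windows held neither. The windows are the 250 bases before a transcription start in RefSeq (GRCh38.p14), printed 5′ to 3′ on the strand of the gene. CArG boxes, the sites of SRF, are in capitals in the first 3 sequences. In that of NR4A3, capitals mark the half-site TGACG or its reverse complement CGTCA, which the first 3 sequences also hold, unmarked.
EGR1, chr5:138465229-138465478, plus strand: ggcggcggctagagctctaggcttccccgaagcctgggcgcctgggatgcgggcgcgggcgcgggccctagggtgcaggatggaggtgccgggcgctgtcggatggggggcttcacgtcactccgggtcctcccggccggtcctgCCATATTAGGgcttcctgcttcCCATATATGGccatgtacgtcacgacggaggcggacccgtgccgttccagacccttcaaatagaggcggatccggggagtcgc
EGR2, chr10:62816367-62816616, minus strand: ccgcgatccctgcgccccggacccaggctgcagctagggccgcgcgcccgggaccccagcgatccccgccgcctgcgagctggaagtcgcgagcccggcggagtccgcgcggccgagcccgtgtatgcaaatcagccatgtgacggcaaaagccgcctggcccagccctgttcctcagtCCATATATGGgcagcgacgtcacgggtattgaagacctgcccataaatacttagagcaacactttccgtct
SRF, chr6:43171019-43171268, plus strand: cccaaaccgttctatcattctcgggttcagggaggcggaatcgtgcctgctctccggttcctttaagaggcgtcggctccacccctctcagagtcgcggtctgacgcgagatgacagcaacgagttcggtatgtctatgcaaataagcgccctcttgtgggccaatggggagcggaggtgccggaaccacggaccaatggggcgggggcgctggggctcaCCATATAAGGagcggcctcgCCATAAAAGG
NR4A3, chr9:99821635-99821884, plus strand: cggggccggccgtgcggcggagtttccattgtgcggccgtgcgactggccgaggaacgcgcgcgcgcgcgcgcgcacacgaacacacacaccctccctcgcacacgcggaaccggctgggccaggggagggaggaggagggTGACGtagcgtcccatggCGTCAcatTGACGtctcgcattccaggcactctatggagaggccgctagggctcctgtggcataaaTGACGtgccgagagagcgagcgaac
NR4A1, chr12:52022582-52022831, plus strand: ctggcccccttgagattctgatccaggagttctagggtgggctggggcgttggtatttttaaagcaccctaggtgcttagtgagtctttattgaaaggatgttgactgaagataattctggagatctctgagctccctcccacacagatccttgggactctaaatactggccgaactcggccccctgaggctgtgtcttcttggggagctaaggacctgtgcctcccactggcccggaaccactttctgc
In GENCODE 29 (GRCh38) the EGR1 gene (ENSG00000120738) spans chr5:138465490-138469315 on the plus strand, NR4A1 chr12:52022832-52059507 on the plus strand, NR4A2 chr2:156324432-156342348 on the minus strand and IER3 chr6:30743199-30744554 on the minus strand. EGR1 held 2 CArG boxes, 105 to 96 and 83 to 74 bases before the start, and SRF also held 2, at 30 to 21 and 10 to 1. EGR2 held 1, at 71 to 62. The other start sites in the table, 2 of EGR2 and 1 of SRF, had no CArG box in their windows. A CArG box stood in 1.16% of the 35114 upstream windows in the table, on either strand. None was found in the windows of EGR4, NR4A1, NR4A3 or IER2. EGR3 was left out of the search, and no window was at hand for NR4A2 and IER3, so nothing is known here of their sites. NR4A3 held 4 half-sites, EGR1, EGR2 and EGR4 held 2 each, and IER2 and SRF held 1 each, a motif present in 21.2% of upstream windows. Neither window of NR4A1 held one. These windows end at chr12:52022831 and chr12:52037714, and start sites further inside the gene were not searched. An EGR site (GCGNGGGCG, on either strand) stood in the windows of EGR1 and SRF and in 8.41% of all upstream windows. These matches are descriptions of letters and say nothing of binding in these cells.

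Per kilobase of exon, IER3 was the most abundant member in control cells in DMSO, at 78.2 ± 4.57 CPM per kb (SD, n = 3). IER2 followed at 15.8 ± 0.374 and SRF at 15.1 ± 0.767, whose libraries overlapped. NR4A1 (8.52 ± 0.291) and EGR1 (8.05 ± 0.649) came next and overlapped too. NR4A2 stood at 5.44 ± 0.132, EGR3 at 4.60 ± 0.101 and NR4A3 at 0.385 ± 0.0097 CPM per kb, each apart from its neighbours. EGR2 (0.102 ± 0.0168) and EGR4 (0.0582 ± 0.0431) were lowest and overlapped. EGR4 had 0 to 46 counts per library over all 66 and is given as counts. In GENCODE 29 a gene on the opposite strand covers 30.8% of the exon bases of IER2, 26.5% of IER3, 10.3% of NR4A1 and 3.38% of EGR3, and the strand setting of the counting is not given in the sources used here, so the counts of these 4 genes may hold reads of their neighbours.

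Vemurafenib in control cells asked what remains of these genes when mutant BRAF is blocked. 9 of the 10 members fell, 6 of them at least 2-fold, and NR4A3 rose. IER3 had 8.43, 8.23 and 9.30 CPM in vemurafenib, against 99.9, 112 and 106 CPM in DMSO. This was the largest change among the members (-3.61 ± 0.052, adjusted p = 1.4e-45). EGR1 had 7.66, 7.24 and 8.24 CPM in vemurafenib, against 23.1, 27.2 and 25.5 CPM in DMSO (-1.71 ± 0.098, adjusted p = 4.1e-21). NR4A1 had 27.4, 24.6 and 26.0 CPM in vemurafenib, against 59.7, 63.8 and 62.9 CPM in DMSO (-1.26 ± 0.057, adjusted p = 4.0e-25). The groups did not overlap for any of these genes. EGR3 changed by -1.27 ± 0.1, NR4A2 by -1.09 ± 0.067, IER2 by -0.92 ± 0.034 and SRF by -0.64 ± 0.04. NR4A3 went the other way, with 4.50, 4.43 and 4.65 CPM in vemurafenib, against 2.46, 2.47 and 2.36 CPM in DMSO (0.90 ± 0.13, adjusted p = 3.6e-08). EGR2 had 21, 20 and 25 counts in vemurafenib, against 41, 68 and 55 in DMSO (-0.98 ± 0.37, adjusted p = 0.017), a call that was lost without replicate 1 (adjusted p = 0.078) and without replicate 2 (adjusted p = 0.088). EGR4 had 0, 1 and 9 counts in vemurafenib, against 16, 37 and 5 in DMSO, which overlapped. EGR4 is among the 9 and the 6 (-2.25, adjusted p = 0.016). Over all 27453 genes 30.3% fell and 35.8% rose, 11.2% and 18.5% by at least 2-fold, and the median was 0.11, whereas the median of the members was -1.17.

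The genes around the members in the pathway moved with the drug to different degrees. All 14 ERK output genes fell, with SPRY4, a feedback inhibitor of receptor signalling, at -6.56 ± 0.065 and a list median of -2.94. Of 26 other immediate early genes 18 fell and 8 rose, where 30.3% of all genes fell and 35.8% rose. The AP-1 subunit JUN rose by 4.98 ± 0.047 and the stress factor ATF3 by 3.60 ± 0.075, while MYC changed by -3.26 ± 0.099 and MAFF by -2.96 ± 0.081. Of 8 partners of EGR and SRF 5 fell and 3 rose. The ETS factor ELK3 changed by -1.56 ± 0.031 and NAB2, a corepressor that binds EGR proteins, by -0.62 ± 0.039. Of 15 actin genes and known SRF targets 8 fell and 7 rose. The mitochondrial share of counts was 2.54% ± 0.199 in vemurafenib and 1.19% ± 0.0427 in DMSO (SD, n = 3), and did not overlap. In DMSO the means were 1.44% to 1.65% in the 6 knockout groups, each of whose libraries lay above those of control cells. Under vemurafenib the means were 1.84% to 2.54% in the knockout groups, and the libraries of both MED12 guides and of MED23 guide 1 lay below those of control cells. With SOX10 the mean was 1.28% against 1.80% with the empty vector in MED23 knockout cells and 1.42% against 1.65% in control cells, without overlap in either. It was 1.61% in the double knockout and 1.77% in MED23 knockout cells, without overlap, and 1.88% in HDAC3 knockout cells and 1.78% in control cells, which overlapped. The part of the mitochondrial share in these comparisons was not tested.

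**Figure D1:**
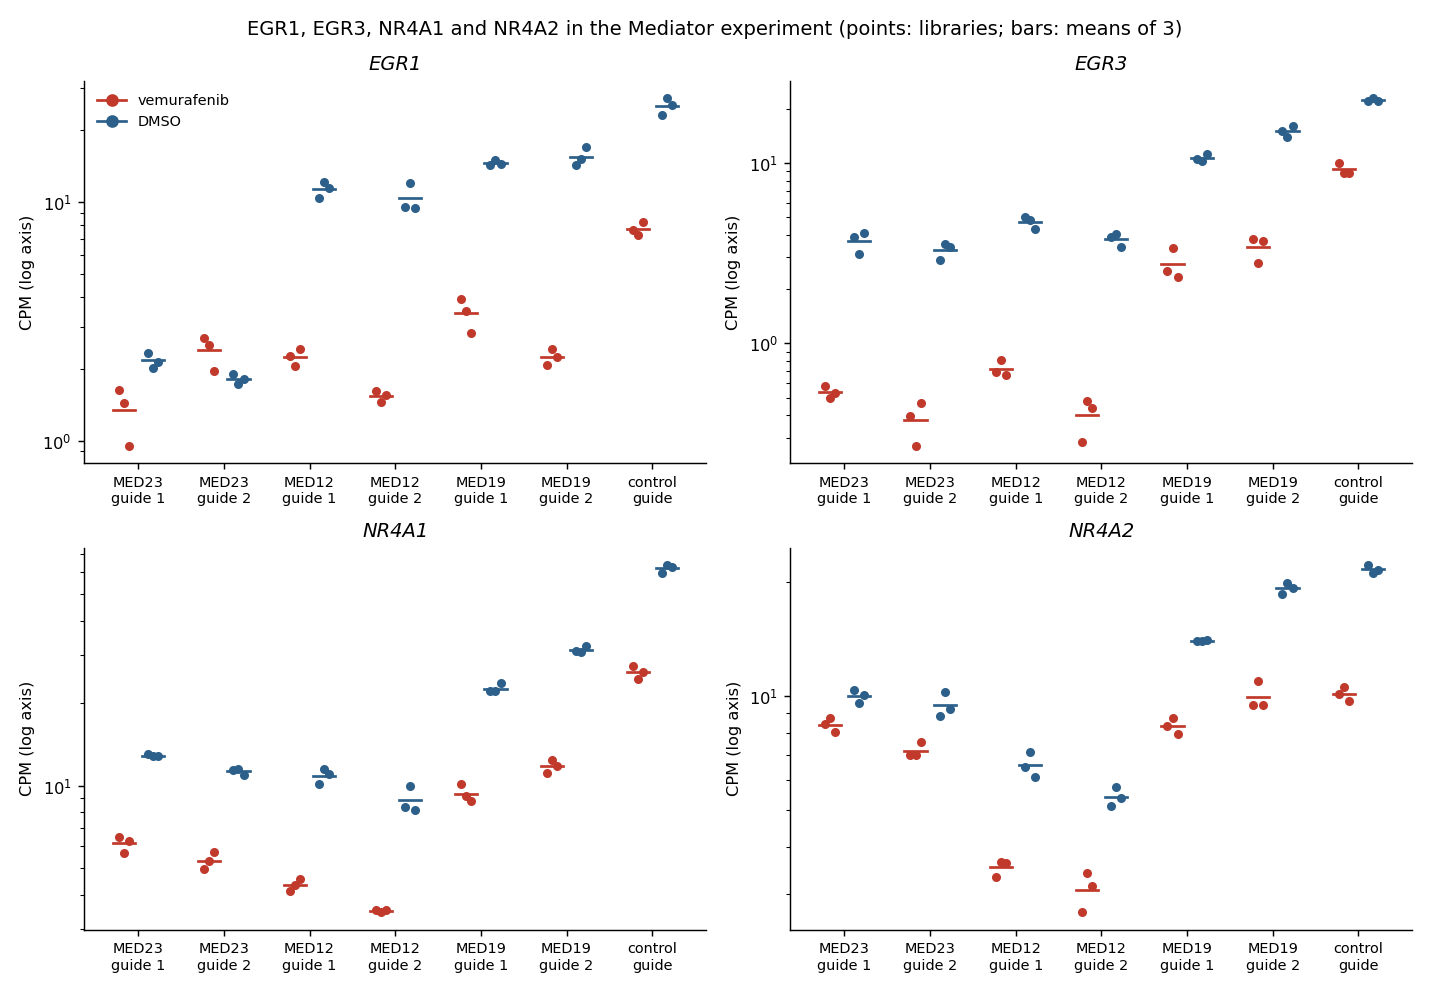
Level of EGR1, EGR3, NR4A1 and NR4A2 in CPM on a log axis in each library of the Mediator experiment, by knockout and guide, with vemurafenib in red and DMSO in blue; short lines are means of 3 libraries. In MED23 knockout cells EGR1 is at 1.73 to 2.33 CPM in DMSO whereas the control libraries are at 23.1 to 27.2 CPM, and EGR3 is below 1 CPM under vemurafenib with MED23 or MED12 loss.

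Loss of MED23 in DMSO asked what the tail subunit contributes while ERK signalling runs. EGR1 fell more than any other member. It had 2.33, 2.02 and 2.14 CPM with guide 1 and 1.90, 1.73 and 1.82 CPM with guide 2, against 23.1, 27.2 and 25.5 CPM in control cells. All 6 knockout libraries lay below every control library, at means of 8.57% and 7.17% of the control mean (-3.67 ± 0.087, adjusted p = 1.2e-35). EGR3 had 3.88, 3.14 and 4.09 CPM with guide 1 and 2.90, 3.57 and 3.41 CPM with guide 2, against 22.0, 22.9 and 22.0 CPM in control cells (-2.67 ± 0.089, adjusted p = 1.3e-29). NR4A1 had 13.0, 12.8 and 12.8 CPM with guide 1 and 11.4, 11.5 and 11.0 CPM with guide 2, against 59.7, 63.8 and 62.9 CPM in control cells (-2.37 ± 0.048, adjusted p = 2.1e-38). Both genes were separated from the controls with either guide. NR4A2 changed by -1.15 ± 0.055, IER3 by -0.72 ± 0.037 and NR4A3 by -0.61 ± 0.12 (adjusted p = 2.9e-05). IER2 (-0.14 ± 0.029, adjusted p = 7.4e-05) and SRF (-0.12 ± 0.034, adjusted p = 0.0039) fell by small amounts, and the SRF call was lost without replicate 2 (adjusted p = 0.098). EGR2 did not pass (0.33 ± 0.3, adjusted p = 0.43), with 131 and 220 counts over the libraries of the 2 guides and 164 over the control libraries. EGR4 had 15 and 20 counts over the libraries of the guides and 58 over the control libraries. In all 8 members fell and 0 rose at an adjusted p under 0.05, 4 by at least 2-fold, with a median of -0.93. Over all genes 18.5% fell and 18.4% rose, 2.97% and 3.82% by at least 2-fold, with a median of 0.01.

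Of 15 actin genes and other known targets of SRF 13 rose and 2 fell with MED23 loss, with a list median of 0.28. With MED12 loss 13 rose and 2 fell (median 0.53), and with MED19 loss 10 rose and 3 fell (median 0.25), against the same control libraries. Of all genes 18.4% rose and 18.5% fell with MED23 loss, 27.9% and 27.0% with MED12 loss, and 20.4% and 20.2% with MED19 loss. With MED23 loss the SRF targets called included the calponin CNN1 at 1.57 ± 0.28 and vinculin (VCL) at 0.72 ± 0.027, and ACTG2 at -1.59 ± 0.46 (adjusted p = 0.0044). Of 26 other immediate early genes 11 rose and 10 fell. FOS changed by -1.35 ± 0.11 and MYC by -1.33 ± 0.072, whereas ATF3 rose by 1.51 ± 0.07 and JUN by 1.08 ± 0.041. Of 14 ERK output genes 9 fell and 5 rose, with SPRY4 at -1.80 ± 0.039 and a median of -0.19. Among the partners NAB2 fell by 1.05 ± 0.033 (adjusted p = 7.8e-31) and NAB1, the related corepressor, changed by -0.27 ± 0.039, while FHL2, a LIM protein that binds SRF, rose by 0.58 ± 0.046.

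Both further experiments repeated the comparison in separate libraries. With an empty vector EGR1 had 2.17, 1.66 and 2.30 CPM in MED23 knockout cells, against 14.7, 14.1 and 14.0 CPM in control cells (-2.80 ± 0.11, adjusted p = 3.0e-19). In the HDAC3 experiment it had 2.10, 1.58 and 1.83 CPM in MED23 knockout cells, against 13.2, 15.0 and 13.8 CPM in control cells (-2.91 ± 0.094, adjusted p = 4.3e-16). No knockout library reached a control library in either experiment. EGR3 changed by -2.28 ± 0.09 and -2.15 ± 0.11, NR4A1 by -2.32 ± 0.054 and -2.04 ± 0.073, NR4A2 by -0.68 ± 0.089 and -0.69 ± 0.082, and IER3 by -0.37 ± 0.041 and -0.55 ± 0.049, in the SOX10 and the HDAC3 experiment in that order. NR4A3 fell in the SOX10 experiment (-1.01 ± 0.17, adjusted p = 9.5e-06) without a call in the HDAC3 experiment (-0.26 ± 0.17, adjusted p = 0.33). IER2 (-0.12 ± 0.052, adjusted p = 0.07, and -0.05 ± 0.061, adjusted p = 0.61) and SRF (-0.03 ± 0.042, adjusted p = 0.59, and -0.01 ± 0.061, adjusted p = 0.96) did not pass in either. In the SOX10 experiment 6 of 8 members tested fell, against 22.3% of 18009 genes, and in the HDAC3 experiment 5 of 9 fell, against 12.0% of 21139 genes. NAB2 changed by -0.95 ± 0.047 and -0.93 ± 0.067.

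Loss of MED12, of Mediator's kinase module, and of MED19, of its middle module, was read against the same 3 control libraries as loss of MED23. SOX10 mRNA was lower in DMSO with loss of MED12 (-2.68), MED23 (-1.43) and MED19 (-0.70). Under vemurafenib it changed by -3.72, -1.57 and -1.06 against drug-treated control cells, in that order. Its part in the member changes was not tested. With MED12 loss NR4A1 fell furthest, to 10.1, 11.5 and 11.0 CPM with guide 1 and 8.35, 10.0 and 8.17 CPM with guide 2, against 59.7, 63.8 and 62.9 CPM in control cells (-2.66 ± 0.048, adjusted p = 3.0e-41). NR4A2 had 6.49, 7.11 and 6.13 CPM with guide 1 and 5.11, 5.75 and 5.37 CPM with guide 2, against 22.1, 21.1 and 21.5 CPM in control cells (-1.85 ± 0.056, adjusted p = 7.0e-32). Both NR4A genes were below every control library with either guide. EGR3 changed by -2.40 ± 0.088, EGR1 by -1.22 ± 0.079 and IER3 by -0.99 ± 0.037. NR4A3 (0.25 ± 0.12, adjusted p = 0.064), SRF (0.04 ± 0.034, adjusted p = 0.32) and EGR2 (-0.04 ± 0.3, adjusted p = 0.93) did not pass. IER2 passed by a narrow margin (0.07 ± 0.029, adjusted p = 0.048), and its call was lost in 9 of the 10 other settings and turned to -0.01 without replicate 1. Together 5 members fell and 1 rose, against 27.0% and 27.9% of all genes. EGR4 had 111 and 86 counts over the libraries of the 2 guides and 58 over the control libraries.

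With MED19 loss the same 5 members fell by less. NR4A1 had 22.0, 22.1 and 23.6 CPM with guide 1 and 31.0, 30.8 and 32.2 CPM with guide 2, against 59.7, 63.8 and 62.9 CPM in control cells (-1.22 ± 0.047, adjusted p = 5.6e-27). EGR3 changed by -0.82 ± 0.086, EGR1 by -0.75 ± 0.079, IER3 by -0.43 ± 0.038 and NR4A2 by -0.39 ± 0.055. The guides differed, since EGR3 was at 48.0% of the control mean with guide 1 and at 67.2% with guide 2. NR4A2 was at 64.8% with guide 1 and at 89.2% with guide 2, so its change was mostly that of guide 1. IER2 rose by 0.21 ± 0.029 and EGR2 by 0.95 ± 0.3 (adjusted p = 0.0082), with 272 and 191 counts over the libraries of the guides and 164 over the control libraries. NR4A3 (0.06 ± 0.12, adjusted p = 0.74) and SRF (-0.04 ± 0.034, adjusted p = 0.32) did not pass. Of all genes 20.2% fell and 20.4% rose. EGR4 had 53 and 29 counts over the libraries of the guides.

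The subunits were set against each other directly, without the control libraries. EGR1 was lower in MED23 knockout cells than in MED12 knockout cells, where it had 10.4, 12.2 and 11.4 CPM with guide 1 and 9.57, 12.0 and 9.45 CPM with guide 2 (-2.45 ± 0.08, adjusted p = 2.4e-30). It was also lower than in MED19 knockout cells, with 14.3, 15.0 and 14.5 CPM and 14.3, 15.2 and 16.9 CPM (-2.92 ± 0.08, adjusted p = 1.1e-32). EGR3 in MED23 knockout cells was lower than in MED19 knockout cells (-1.86 ± 0.08) and differed little from MED12 knockout cells (-0.27 ± 0.083, adjusted p = 0.0045). The call against MED12 loss was lost without replicate 1 (adjusted p = 0.19) and with guide 2 of each subunit alone, matched by number only (adjusted p = 0.17). NR4A1 and NR4A2 in MED23 knockout cells were higher than with MED12 loss (0.30 ± 0.044 and 0.71 ± 0.05) and lower than with MED19 loss (-1.14 ± 0.042 and -0.75 ± 0.048). NR4A3 was lower with MED23 loss than with either (-0.85 ± 0.098 against MED12, -0.67 ± 0.1 against MED19). Against MED12 loss 6 members were lower and 3 higher, where 25.9% and 24.9% of all genes were. EGR4 is among the 6, with 15 and 20 counts over the libraries of the MED23 guides and 111 and 86 with MED12 loss. Against MED19 loss 9 were lower, where 17.5% of all genes were, but the calls of EGR2 (-0.61 ± 0.24, adjusted p = 0.039) and SRF (-0.07 ± 0.028, adjusted p = 0.037) were each lost without any one replicate.

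**Figure D2:**
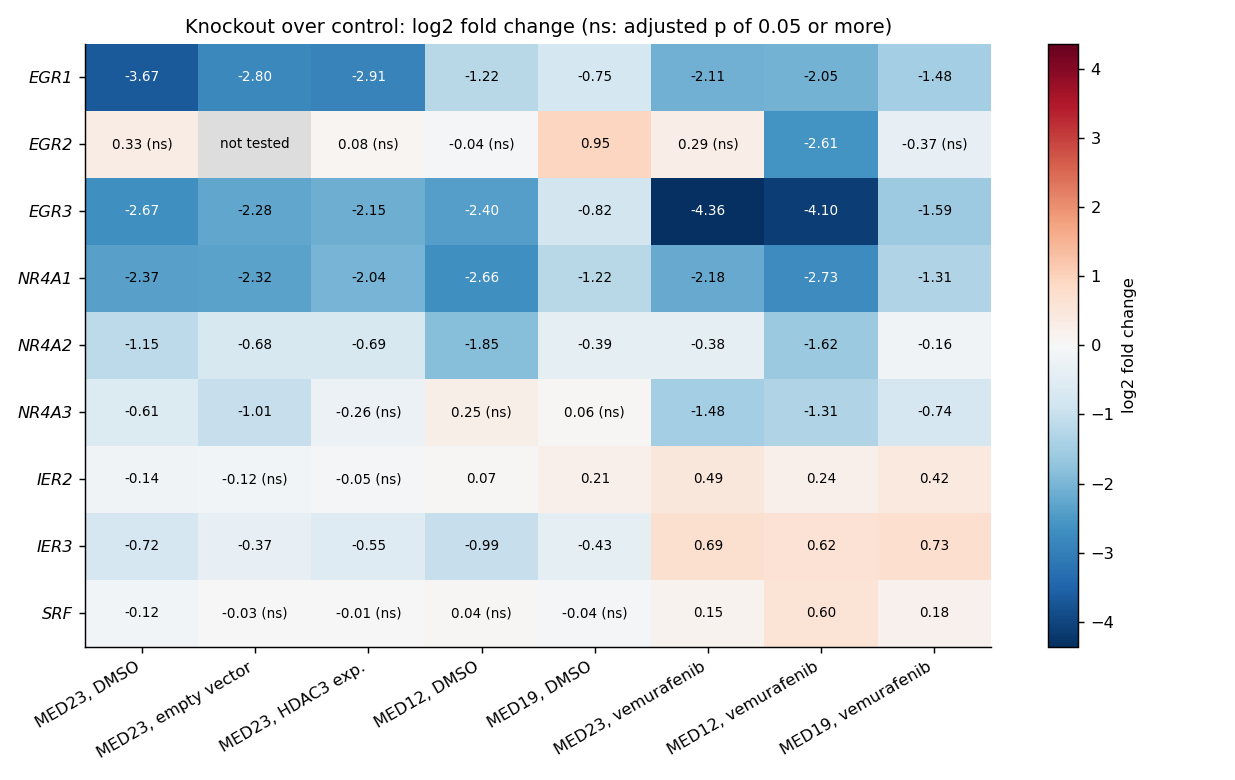
Log2 fold change of 9 members, knockout over control, in 8 comparisons; blue is lower and red higher in knockout cells, ns marks an adjusted p of 0.05 or more, and EGR4 is left out, and EGR2 with MED12 loss under vemurafenib rests on few, for low counts. EGR1, EGR3 and NR4A1 are lower in all 8 comparisons, from -0.75 for EGR1 with MED19 loss in DMSO to -4.36 for EGR3 with MED23 loss under vemurafenib.

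Under vemurafenib the knockouts were compared with drug-treated control cells. EGR3 was at its lowest of the whole experiment. It had 0.583, 0.497 and 0.530 CPM with MED23 guide 1 and 0.394, 0.271 and 0.469 CPM with guide 2, against 10.1, 8.82 and 8.87 CPM in control cells (-4.36 ± 0.13, adjusted p = 1.1e-32). With MED12 loss it had 0.693, 0.813 and 0.668 CPM with guide 1 and 0.285, 0.479 and 0.439 CPM with guide 2 (-4.10 ± 0.11, adjusted p = 9.1e-35). These 4 groups were at 2.41%, 1.69%, 3.25% and 1.80% of control cells in DMSO. With MED19 loss EGR3 changed by -1.59 ± 0.094. EGR1 was lower in each knockout, by -2.11 ± 0.1 with MED23 loss, -2.05 ± 0.091 with MED12 loss and -1.48 ± 0.091 with MED19 loss. The difference of EGR1 between MED23 and MED12 loss seen in DMSO was not detected under the drug (-0.06 ± 0.097, adjusted p = 0.64). Guide 1 of MED23 against guide 1 of MED12 gave -0.74 (adjusted p = 1.8e-05), and guide 2 against guide 2 gave 0.63 (adjusted p = 5.8e-05). These guides were matched by number only, and other matches were not tested. Mean EGR1 was 1.34 and 2.39 CPM with MED23 guides 1 and 2, and 2.25 and 1.54 CPM with MED12 guides 1 and 2. NR4A1 changed by -2.18 ± 0.054, -2.73 ± 0.052 and -1.31 ± 0.05, NR4A2 by -0.38 ± 0.061, -1.62 ± 0.061 and -0.16 ± 0.06, and NR4A3 by -1.48 ± 0.12, -1.31 ± 0.11 and -0.74 ± 0.11, with MED23, MED12 and MED19 loss in that order. The NR4A2 call with MED19 loss (adjusted p = 0.028) was lost without replicate 1 and without replicate 3 (adjusted p = 0.14 in each) and with guide 2 alone (-0.03, adjusted p = 0.77).

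IER3, IER2 and SRF were higher in drug-treated knockout cells than in drug-treated control cells. IER3 had 14.3, 14.1 and 14.1 CPM with MED23 guide 1 and 13.4, 13.3 and 14.7 CPM with guide 2, against 8.43, 8.23 and 9.30 CPM in control cells (0.69 ± 0.049, adjusted p = 5.6e-17). It rose by 0.62 ± 0.048 with MED12 loss and by 0.73 ± 0.048 with MED19 loss, and all 18 knockout libraries lay above the 3 control libraries. IER2 rose by 0.49 ± 0.031, 0.24 ± 0.03 and 0.42 ± 0.031 and SRF by 0.15 ± 0.036, 0.60 ± 0.035 and 0.18 ± 0.035, with MED23, MED12 and MED19 loss in that order. Against MED12 loss under the drug, MED23 loss left NR4A2 (1.23 ± 0.054), NR4A1 (0.55 ± 0.052), IER2 (0.25 ± 0.025) and EGR2 (2.90 ± 0.35) higher and SRF lower (-0.45 ± 0.028), 4 and 1 members, where 25.8% and 29.9% of all genes were higher and lower. Against MED19 loss it left EGR3 (-2.78 ± 0.13), NR4A1 (-0.87 ± 0.049), NR4A3 (-0.74 ± 0.1), EGR1 (-0.63 ± 0.097) and NR4A2 (-0.23 ± 0.051) lower and IER2 higher (0.07 ± 0.025), where 19.0% and 17.6% of all genes were. With guide 2 of both subunits alone EGR1 was 0.10 higher (adjusted p = 0.64), and with guide 1 of both alone NR4A2 was 0.01 higher (adjusted p = 0.93). These guides were matched by number only, and other matches were not tested. The IER2 call was lost without replicate 2 or 3 (adjusted p = 0.095 and 0.19). EGR2 had 17 and 14 counts over the libraries of the MED12 guides, 14 and 7 of them in the replicate 3 libraries, 60 and 48 with MED23 loss, 79 and 38 with MED19 loss and 66 over the control libraries. EGR4 had at most 11 counts in any of these 21 libraries. With MED23, MED12 and MED19 loss 5, 6 and 5 members fell, against 22.7%, 29.6% and 20.7% of all genes, and 3 rose in each, against 24.6%, 32.5% and 23.1%.

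Vemurafenib over DMSO within each knockout asked whether the drug response itself was altered, and the interaction, the response in knockout cells minus that in control cells, tested it. EGR1 in MED23 knockout cells had 1.63, 1.44 and 0.952 CPM with guide 1 and 2.70, 2.52 and 1.95 CPM with guide 2 in vemurafenib, against 2.33, 2.02 and 2.14 CPM and 1.90, 1.73 and 1.82 CPM in DMSO. The guides went opposite ways, at -0.69 (adjusted p = 6.7e-05) with guide 1 and 0.39 (adjusted p = 0.0091) with guide 2, so that the value over both was -0.15 ± 0.1 (adjusted p = 0.18). The interaction was positive over both guides (1.56 ± 0.14, adjusted p = 2.9e-13) and with guide 1 (1.02) or guide 2 (2.10) alone. In MED12 and MED19 knockout cells EGR1 fell by more than in control cells, with responses of -2.54 ± 0.077 and -2.44 ± 0.077 and interactions of -0.83 ± 0.12 and -0.73 ± 0.12.

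EGR3 fell further in every knockout, with responses of -2.96 ± 0.12, -2.97 ± 0.1 and -2.04 ± 0.081 and interactions of -1.69 ± 0.17, -1.70 ± 0.15 and -0.77 ± 0.13 for MED23, MED12 and MED19 in that order. NR4A1 fell by -1.08 ± 0.049, -1.33 ± 0.047 and -1.34 ± 0.043, and none of its interactions passed (0.18 ± 0.075, adjusted p = 0.054, -0.07 ± 0.073, adjusted p = 0.47, and -0.09 ± 0.071, adjusted p = 0.39). That with MED23 loss passed in 5 of 10 other settings, among them DESeq2's Wald test (0.19, adjusted p = 0.026). NR4A2 fell by -0.32 ± 0.051 in MED23 knockout cells, with an interaction of 0.77 ± 0.084, and by -0.85 ± 0.053 and -0.85 ± 0.048 in MED12 and MED19 knockout cells, with interactions of 0.24 ± 0.085 (adjusted p = 0.016) and 0.24 ± 0.082 (adjusted p = 0.021). The call with MED12 loss was lost without replicate 3 (adjusted p = 0.27) and with guide 1 alone (adjusted p = 0.097), and that with MED19 loss without replicate 1 (adjusted p = 0.056) or 3 (adjusted p = 0.12) and with guide 2 alone (adjusted p = 0.37). NR4A3, which the drug raised in control cells, gave no call in MED23 (0.02 ± 0.11, adjusted p = 0.87) or MED19 knockout cells (0.10 ± 0.096, adjusted p = 0.38) and was lower in MED12 knockout cells under the drug (-0.65 ± 0.094). In MED12 knockout cells it had 1.80, 1.90 and 1.96 CPM with guide 1 and 2.07, 1.28 and 1.99 CPM with guide 2 in vemurafenib, against 3.05, 3.20 and 2.50 CPM and 2.94, 2.73 and 2.88 CPM in DMSO. The drug-treated libraries of MED12 knockout cells thus lay below the DMSO libraries, where those of control cells lay above. The interactions of NR4A3 were -0.88 ± 0.17, -0.80 ± 0.16 and -1.55 ± 0.16 for MED23, MED19 and MED12. IER3 fell by less in every knockout, at -2.20 ± 0.036, -2.00 ± 0.034 and -2.45 ± 0.035, with interactions of 1.41 ± 0.062, 1.61 ± 0.061 and 1.16 ± 0.061 for MED23, MED12 and MED19. SRF had 57.8, 57.6 and 62.2 CPM with MED12 guide 1 and 67.3, 60.2 and 65.5 CPM with guide 2 in vemurafenib, where control cells had 40.3, 41.5 and 40.1 CPM. SRF, the factor itself, changed by -0.37 ± 0.029, -0.08 ± 0.028 and -0.42 ± 0.028, with interactions of 0.27 ± 0.049, 0.56 ± 0.048 and 0.22 ± 0.049. The call for SRF in MED12 knockout cells (adjusted p = 0.01) was lost without replicate 2 (adjusted p = 0.11) and with guide 2 alone (adjusted p = 0.64). In MED23, MED12 and MED19 knockout cells 7, 10 and 9 members fell and none rose, against 32.1%, 30.8% and 32.6% of all genes that fell. EGR4 is among the 10 and the 9. Over the libraries of the 2 MED12 guides it had 14 and 16 counts in vemurafenib, against 111 and 86 in DMSO. With the MED19 guides it had 7 and 2 in vemurafenib, against 53 and 29 in DMSO. Positive interactions numbered 5, 4 and 4, against 18.5%, 24.9% and 17.4% of all genes, and negative ones 2, 4 and 4, against 16.2%, 24.2% and 15.2%.

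**Figure D3:**
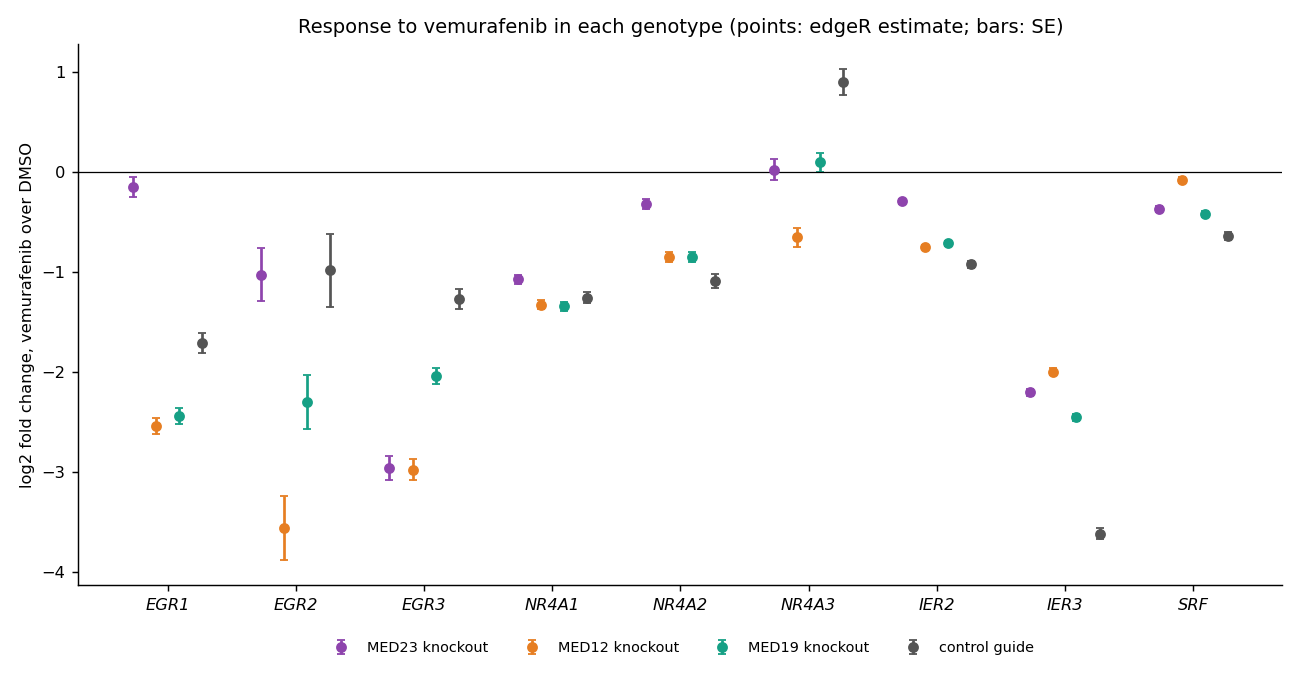
Log2 fold change of vemurafenib over DMSO for 9 members in MED23, MED12 and MED19 knockout cells and in control cells, with SE bars from edgeR. EGR1 stands at -0.15 in MED23 knockout cells and at -1.71 in control cells, NR4A3 at 0.90 in control cells, and IER3 is lowest in control cells (-3.61).

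Overexpression of SOX10 asked whether more of this factor changes the members with or without MED23. NR4A1 responded most in MED23 knockout cells. It had 22.5, 21.2 and 21.1 CPM with SOX10, against 9.03, 9.34 and 9.65 CPM with the empty vector (1.21 ± 0.06, adjusted p = 3.4e-16). In control cells it had 54.1, 54.6 and 55.9 CPM with SOX10, against 48.5, 46.7 and 44.9 CPM with the empty vector (0.23 ± 0.041, adjusted p = 6.4e-05). The difference between these responses passed (0.97 ± 0.074, adjusted p = 3.8e-11) and was the 1 member interaction of 8 to do so, against 7.64% of genes with a positive and 7.04% with a negative one. SOX10 mRNA itself was raised by unequal amounts, 0.80 in MED23 knockout cells and 0.19 in control cells, and its part in the interaction was not tested.

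EGR1 rose by similar amounts on both backgrounds. It had 3.48, 3.44 and 2.72 CPM with SOX10, against 2.17, 1.66 and 2.30 CPM with the empty vector, in MED23 knockout cells (0.65 ± 0.14, adjusted p = 4.2e-04). In control cells it had 23.3, 24.6 and 22.1 CPM with SOX10, against 14.7, 14.1 and 14.0 CPM with the empty vector (0.71 ± 0.067, adjusted p = 9.4e-10), and the interaction was -0.06 ± 0.16 (adjusted p = 0.86). EGR3 rose by 0.60 ± 0.11 in MED23 knockout cells and by 0.24 ± 0.065 in control cells, where the call was lost without replicate 2 (adjusted p = 0.1). Its interaction did not pass (0.36 ± 0.13, adjusted p = 0.059), and passed with a replicate block (adjusted p = 0.047). NR4A3 rose by 0.74 ± 0.17 and 0.62 ± 0.13 and NR4A2 by 0.26 ± 0.093 and 0.25 ± 0.079 in MED23 knockout and control cells. NR4A2 lost its call in control cells without replicate 2 or 3 (both adjusted p = 0.11) and in knockout cells without replicate 1 (adjusted p = 0.31) or 2 (adjusted p = 0.055). IER3 did not pass (0.09 ± 0.041 and 0.10 ± 0.039). SRF (-0.12 ± 0.042) and IER2 (-0.15 ± 0.052) fell in MED23 knockout cells, each at adjusted p = 0.024, calls that were lost for SRF without any one replicate and for IER2 without replicate 1 or 3. In all 5 members rose and 2 fell in MED23 knockout cells, against 21.2% and 20.7% of all genes, and 5 rose in control cells, against 11.6%. Without replicate 1 the count in MED23 knockout cells was 4 in place of 7, and without replicate 2 that in control cells was 3 in place of 5.

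MED23 loss with SOX10 overexpressed in both backgrounds left 7 of 8 members lower, against 16.3% of all genes. EGR1 changed by -2.86 ± 0.087, EGR3 by -1.92 ± 0.079, NR4A1 by -1.35 ± 0.045, NR4A3 by -0.89 ± 0.13 and NR4A2 by -0.67 ± 0.082. With MED23 loss SOX10 mRNA itself changed by -1.09 with the empty vector and by -0.48 with SOX10 overexpressed in both backgrounds. MED23 knockout cells with SOX10 were also read against control cells with the empty vector. SOX10 mRNA was lower there too (-0.29, adjusted p = 4.3e-09), and its part in these differences was not tested. NR4A1 was then at 46.2% of the control mean (-1.11 ± 0.046, adjusted p = 8.7e-18), where MED23 knockout cells with the empty vector were at 20.0%. EGR1 was at 22.6% (-2.14 ± 0.095), EGR3 at 31.3% (-1.67 ± 0.082) and NR4A2 at 74.7% (-0.42 ± 0.085), and NR4A3 did not pass (-0.27 ± 0.15, adjusted p = 0.16). Here 7 members fell, against 16.9% of all genes. The 7 include small changes of IER2 (83.3% of the control mean), IER3 (82.4%) and SRF (90.0%). EGR2 had 12 counts over the 3 libraries with SOX10 and MED23 loss and 22 over the control libraries, and EGR4 3 and 3, and neither was tested.

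**Figure D4:**
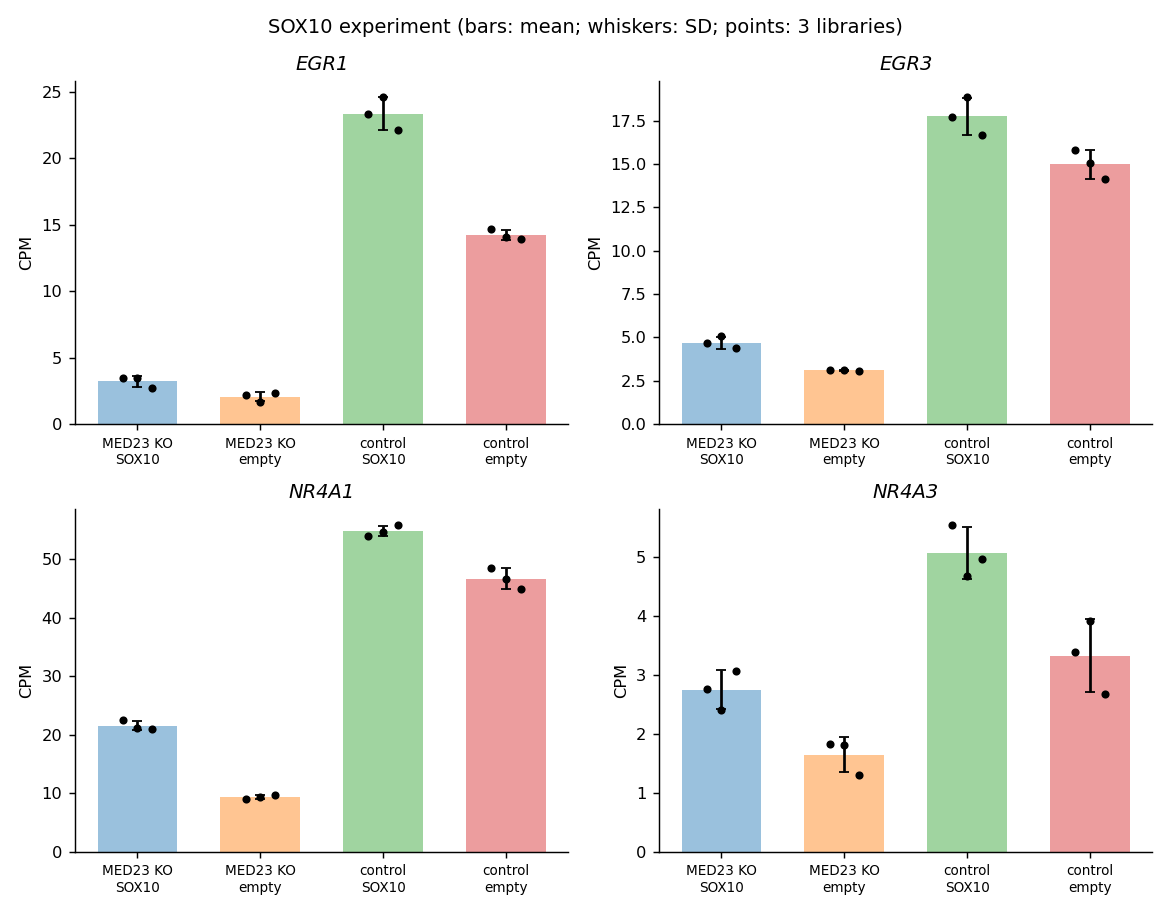
Level of EGR1, EGR3, NR4A1 and NR4A3 in CPM in the SOX10 experiment; bars are means of 3 libraries, whiskers SD and points libraries. NR4A1 in MED23 knockout cells is at 21.1 to 22.5 CPM with SOX10 and at 9.03 to 9.65 CPM with the empty vector, both below the control libraries.

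Of FOS, the AP-1 subunit whose gene is also known to carry an SRF site, the response to SOX10 was 1.49 ± 0.16 in MED23 knockout cells and 0.66 ± 0.12 in control cells. Of 26 other immediate early genes 8 rose and 11 fell in MED23 knockout cells, against 21.2% and 20.7% of all genes. In control cells 6 rose and 9 fell, against 11.6% and 11.0% of all genes there. KLF4 changed by -1.07 ± 0.058 and -0.87 ± 0.058. In control cells 11 of 13 actin and SRF target genes tested fell and 0 rose, with a list median of -0.23, where 11.0% of all genes fell. In MED23 knockout cells 6 of the 13 fell and 2 rose, with a median of -0.05.

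HDAC3 knockout asked what the deacetylase holds back, with MED23 present and absent. In cells with MED23 8 of 9 members tested rose and 5 of these at least 2-fold, against 21.2% and 4.63% of 21139 genes. EGR3 had 67.2, 72.1 and 73.7 CPM in HDAC3 knockout cells, against 16.1, 19.8 and 19.9 CPM in control cells (1.93 ± 0.095, adjusted p = 1.9e-13). NR4A1 had 6326, 6820 and 6383 counts, or 104 ± 5.53 CPM (SD, n = 3), in HDAC3 knockout cells, against 36.0, 36.7 and 35.5 CPM in control cells (1.53 ± 0.067, adjusted p = 2.7e-14). EGR1 had 28.2, 28.3 and 27.5 CPM in HDAC3 knockout cells, against 13.2, 15.0 and 13.8 CPM in control cells (1.00 ± 0.077, adjusted p = 4.0e-10). The groups were apart for all of these. EGR2 had 133, 128 and 135 counts in HDAC3 knockout cells, against 24, 20 and 46 in control cells (2.86 ± 0.32, adjusted p = 1.3e-07). NR4A3 had 5.98, 5.86 and 6.30 CPM in HDAC3 knockout cells, against 2.13, 2.04 and 1.84 CPM in control cells (1.59 ± 0.16, adjusted p = 3.7e-08). EGR2 gained most on the log2 scale, over control libraries of few counts. IER3 rose by 0.66 ± 0.049, NR4A2 by 0.28 ± 0.08 and IER2 by 0.16 ± 0.062 (adjusted p = 0.043), and SRF fell by 0.28 ± 0.062. The call was lost for IER2 without any one replicate and for NR4A2 without replicate 3 (adjusted p = 0.071). The median of the members was 1.00 and that of all genes -0.00.

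In cells without MED23 the same members did not respond alike. EGR3 had 17.4, 22.0 and 21.1 CPM in the double knockout, against 3.80, 3.74 and 5.11 CPM in MED23 knockout cells (2.27 ± 0.11, adjusted p = 2.8e-13). NR4A1 had 44.9, 45.3 and 37.1 CPM in the double knockout, against 8.90, 9.27 and 8.11 CPM in MED23 knockout cells (2.27 ± 0.074, adjusted p = 3.5e-16). EGR1 had 2.41, 2.67 and 2.80 CPM in the double knockout, against 2.10, 1.58 and 1.83 CPM in MED23 knockout cells (0.50 ± 0.11, adjusted p = 0.001). EGR2 had 32, 25 and 23 counts in the double knockout, against 52, 12 and 19 in MED23 knockout cells, a difference that missed the threshold (0.47 ± 0.36, adjusted p = 0.33). The double knockout libraries of EGR3 and NR4A1 lay far above those of the MED23 knockout, and those of EGR1 only just. IER3 rose by 0.99 ± 0.05 and NR4A3 by 0.84 ± 0.17. NR4A2 rose by 0.23 ± 0.085 and IER2 by 0.21 ± 0.062 and SRF fell by 0.24 ± 0.062, 3 calls that were lost without replicate 2 (adjusted p = 0.3, 0.12 and 0.052), and for NR4A2 also without replicate 3 (adjusted p = 0.11). In all 7 members rose and 1 fell, against 19.1% and 18.9% of all genes, and without replicate 2 the count was 5 in place of 8.

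The interaction, the response to HDAC3 loss without MED23 minus that with it, was positive for NR4A1 (0.74 ± 0.098, adjusted p = 6.9e-06) and IER3 (0.33 ± 0.069, adjusted p = 0.0011). It was negative for EGR2 (-2.38 ± 0.48, adjusted p = 8.4e-04), NR4A3 (-0.75 ± 0.24, adjusted p = 0.028) and EGR1 (-0.50 ± 0.14, adjusted p = 0.01). The call was lost for EGR1 without replicate 1 (-0.28, adjusted p = 0.26) and for NR4A3 without replicate 1 (adjusted p = 0.14) or 2 (adjusted p = 0.11). For EGR3 it did not pass (0.33 ± 0.14, adjusted p = 0.11), and passed with a replicate block (adjusted p = 0.024). Over all genes 10.0% were positive and 10.5% negative. HDAC3 mRNA itself changed by -0.77 in MED23 knockout cells and by -0.97 in control cells, with an interaction of 0.20 (adjusted p = 0.048). SOX10 mRNA rose by 0.78 in MED23 knockout cells and gave no call in control cells (0.07, adjusted p = 0.31). The part of either in the member interactions was not tested. Against control cells the double knockout left EGR1 at 18.8% (-2.41 ± 0.093, adjusted p = 9.3e-15) and NR4A2 at 72.8% (-0.45 ± 0.082). EGR3 did not differ detectably from control cells (0.12 ± 0.097, adjusted p = 0.36), NR4A1 was at 118% (0.23 ± 0.067, adjusted p = 0.0089), NR4A3 at 150.0% (0.59 ± 0.17, adjusted p = 0.0086) and IER3 at 136% (0.45 ± 0.049). The NR4A1 call was lost without replicate 1 (adjusted p = 0.069) or 2 (adjusted p = 0.14) and the NR4A3 call without replicate 2 (adjusted p = 0.11). In all 4 members rose and 3 fell, against 18.2% and 18.4% of all genes, and without replicate 2 the count was 4 in place of 7.

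Read the other way, MED23 loss in cells without HDAC3 lowered 7 of 9 members, 5 of them at least 2-fold, against 18.3% and 3.93% of all genes. EGR1 changed by -3.41 ± 0.093, EGR2 by -2.31 ± 0.32, EGR3 by -1.81 ± 0.097, NR4A1 by -1.30 ± 0.067 and NR4A3 by -1.01 ± 0.16. EGR4 had 8 counts over the 3 double knockout libraries, 6 with HDAC3 loss, 2 with MED23 loss and 20 in control cells. Among the partners NAB2 rose with HDAC3 loss, by 0.71 ± 0.068 in MED23 knockout cells and by 0.43 ± 0.065 in control cells, and was lower in the double knockout than in control cells (-0.22 ± 0.066, adjusted p = 0.011). Of 26 other immediate early genes 18 rose and 1 fell with HDAC3 loss in control cells, against 21.2% and 20.9% of all genes. ATF3 was at 2.20 ± 0.088, GEM at 2.02 ± 0.11 and FOS at 1.51 ± 0.14.

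**Figure D5:**
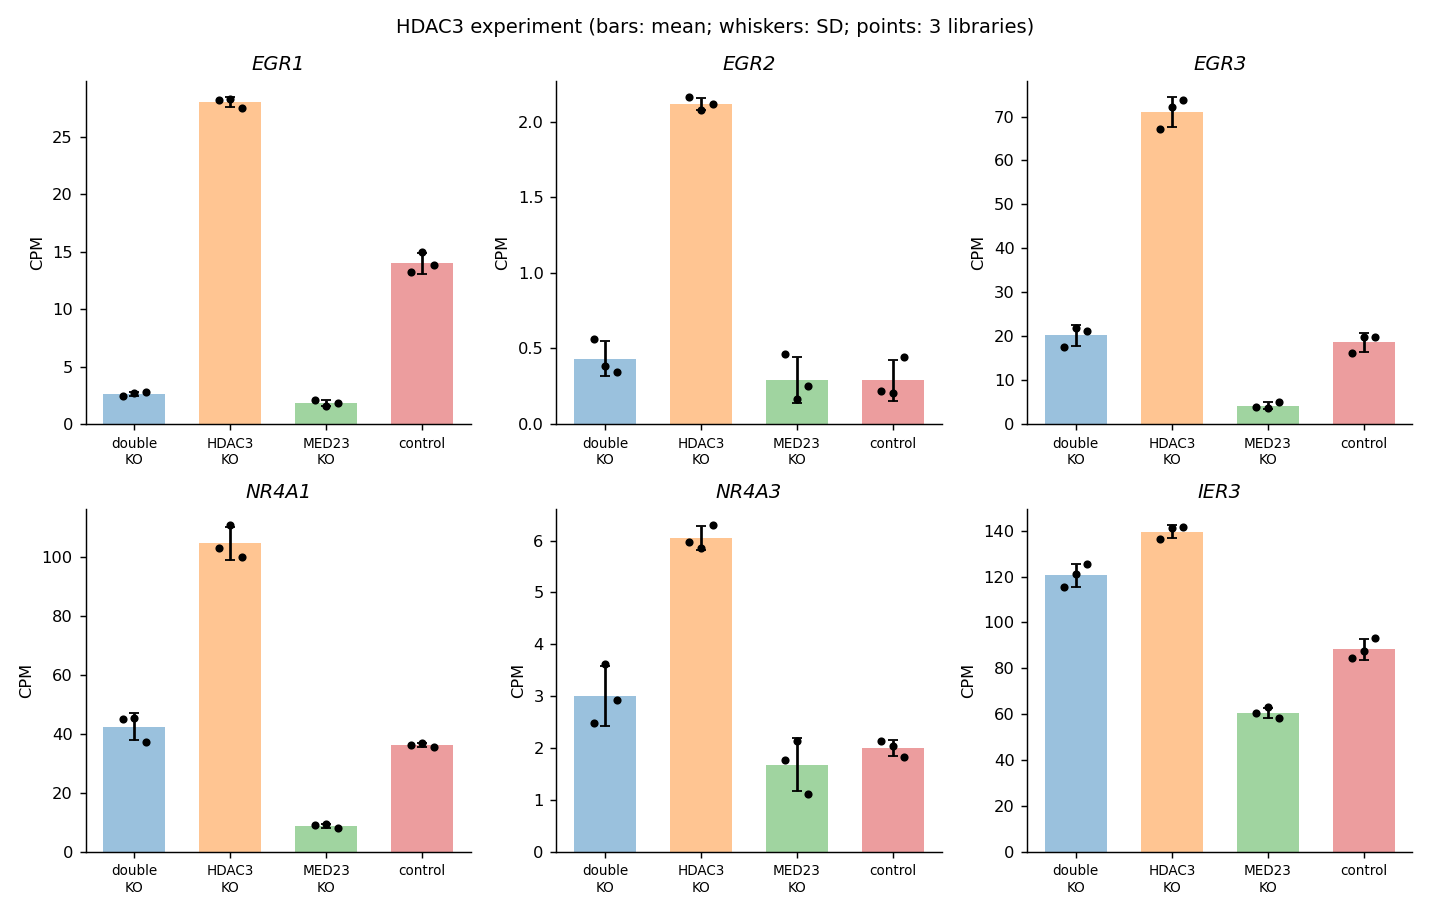
Level of 6 members in CPM in the HDAC3 experiment; bars are means of 3 libraries, whiskers SD and points libraries. In the double knockout EGR3 and NR4A1 are near the control libraries, whereas EGR1 stays at 2.41 to 2.80 CPM, below the 13.2 to 15.0 CPM of control cells.

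Across the 14 group means of log2 CPM in the Mediator experiment the members fell into patterns. These are given as descriptions, since the groups hold both guides of each subunit in both drug arms and are not independent. EGR3 followed NR4A1 (Pearson r = 0.944), NR4A1 followed NR4A2 (0.902) and IER2 followed IER3 (0.926). EGR1 lay closer to EGR3 (0.828) and NR4A1 (0.786) than to SRF (0.394). NR4A3 had r of -0.065 with IER3 and -0.176 with SRF. Of 12182 other genes the 3 most like EGR1 were RAB38 (0.918), a small GTPase of melanosome transport, NAB2 (0.916) and UBR1 (0.894). Those most like EGR3 were PDLIM4 (0.975), RAD54L2 (0.971) and KCNK5 (0.970), and those most like NR4A1 were BMS1P10 (0.985), ARNT2 (0.978) and BACE2 (0.978).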

How the data were processed

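Gene counts of 66 A375 libraries in 3 experiments were used as the authors deposited them, as raw whole-number read counts. Per the labels' protocols, RNA was purified on RNeasy Plus Mini columns and libraries came from the KAPA Stranded mRNA-Seq Kit. The submitters' processing notes name bcl2fastq, HISAT2, HTSeq and the build hg38; their versions, the annotation, the strand setting and the treatment of multi-mapped reads are not stated there. Every column of counts belongs to a sample, 15 by a name that is not its title. GENCODE 29 held 58676 of the 58721 Ensembl IDs.

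Each experiment had its own edgeR 4.0.16 fit (R 4.3.3): filterByExpr with a minimum count of 10 and a minimum total of 15, TMM scaling, a mean for every group with both guides weighted alike, a quasi-likelihood test, and Benjamini-Hochberg adjustment over 27453 (Mediator), 18009 (SOX10) and 21139 (HDAC3) genes, among them 10, 8 and 9 members. SE was taken as the size of the log2 fold change over the root of F. CPM per kb used GENCODE 29 exon lengths. The procedure was tested on simulated data of a plain group comparison with independent libraries. It does not cover guides, interactions or replicates that vary together. Alternatives were no low-count filter, DESeq2 1.42.0 (size factors alone, and its Wald test), a replicate block, a fit of only the groups compared, each guide alone, and leaving out each replicate. In comparisons between subunits, a guide alone was set against the guide of the same number, a match without meaning beyond the number.

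The members and lists were chosen with earlier results of these data known. Named besides the members are the targeted genes, up to 4 genes of each list with the largest change past the threshold, and the 3 genes most like a member among those with a mean log2 CPM of at least 2. Counts of replicates differed by 3.89 to 18.9 (Mediator), 1.39 to 5.24 (SOX10) and 3.98 to 15.6 (HDAC3) times the Poisson variance. Groups share replicate numbers in the labels. By correlated deviations from the group means, every pair passed the rule for pairing only for HDAC3 knockout in MED23 knockout cells (r of 0.152 to 0.332 in 3 of 3 pairs). For HDAC3 knockout in control cells 2 of 3 pairs passed it (r of 0.092 to 0.568).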

Additional observations from a re-analysis of the deposited data

Results flagged for a closer look

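The drug response of 4 members differed between MED12 knockout and control cells by at least 2-fold in the test of the interaction. The interaction was 1.61 for IER3, -1.70 for EGR3, -1.55 for NR4A3 and -2.58 for EGR2. EGR2 rested on 17 and 14 counts over the drug-treated libraries of the 2 guides, and its interaction lay between -2.34 with guide 1 and -2.82 with guide 2. With MED19 loss the interaction was 1.16 for IER3 and -1.32 for EGR2, and that of EGR2 was not past the threshold without replicate 1 or 2 (adjusted p = 0.087 and 0.098, edgeR) or with guide 1 alone (adjusted p = 0.12). With MED23 loss it was 1.56 for EGR1, -1.69 for EGR3 and 1.41 for IER3. EGR1 stood at 1.73 to 2.33 CPM in the DMSO libraries of MED23 knockout cells. EGR2 had an interaction of -2.38 between MED23 and HDAC3 loss, with 80 counts over the double knockout libraries and 396 over those with HDAC3 loss alone. Shares of all genes past both limits are not given here for any interaction, so the counts of flagged members have no background. Without the fold limit, 24.9% of all genes had a positive and 24.2% a negative interaction with MED12 loss. These shares were 17.4% and 15.2% with MED19 loss and 18.5% and 16.2% with MED23 loss. Between MED23 and HDAC3 loss they were 10.0% and 10.5%. No group had the 4 samples that a check for outlying libraries needs.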

How the results depend on the processing

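The tally of recomputed values leaves out EGR4, whose calls are among the counts of members above. Of 1874 values recomputed for the other 204 member changes past the threshold, 1786 kept their direction and passed again. Of the rest 85 missed the threshold and 3 reversed. The 3 were IER2 with MED12 loss in DMSO (-0.00787 to 0.076 when 1 replicate was left out) and, for MED23 against MED19 loss under vemurafenib, EGR1 with guide 2 alone (0.10) and NR4A2 with guide 1 alone (0.014). Among values that had not passed, EGR1 reversed with guide 2 alone for the drug in MED23 knockout cells (0.39) and for MED23 against MED12 loss under the drug (0.63). Between subunits the guides were matched by number only, so these reversals hold for that match.

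The other reversals came when 1 replicate was left out and belong to values that had not passed. With MED12 loss in DMSO EGR2 ranged over -0.21 to 0.058 and SRF over -0.065 to 0.086, and with MED19 loss NR4A3 ranged over -0.012 to 0.086. In MED23 knockout cells the drug response of EGR1 ranged over -0.26 to 0.0052 and that of NR4A3 over -0.076 to 0.096. The NR4A1 interaction of MED12 loss with the drug ranged over -0.12 to 0.0059. For MED23 against MED12 loss under the drug EGR1 ranged over -0.17 to 0.14 and EGR3 over -0.40 to 0.0085. The EGR1 interaction with SOX10 ranged over -0.20 to 0.11. With MED23 loss in the HDAC3 experiment EGR2 ranged over -0.64 to 0.64 and SRF over -0.0668 to 0.0502.

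The number of members called ranged over 3 to 5 (5 with all replicates) for SOX10 in control cells, 4 to 6 (7) for SOX10 in MED23 knockout cells, 5 to 8 (8) for HDAC3 knockout in MED23 knockout cells and 4 to 7 (7) for the double knockout against control, the lowest without replicate 1 for SOX10 in MED23 knockout cells and without replicate 2 for the others. Over all genes the interaction with SOX10 had 2644 calls, and 1364 and 1523 without replicate 2 or 3. Without replicate 2 the HDAC3 experiment had 5139 calls in place of 8033 for HDAC3 knockout in MED23 knockout cells, 2849 in place of 5131 for MED23 knockout, 4864 in place of 7501 for MED23 knockout in HDAC3 knockout cells, 5041 in place of 7745 for the double knockout against control, and 1948 in place of 4333 for the interaction. Pairing by a replicate block raised the member interactions with SOX10 to 2, in place of 1, and changed no call for HDAC3 knockout in MED23 knockout cells. Elsewhere not every pair of libraries passed the rule for pairing, though r reached 0.568 for HDAC3 knockout in control cells. The cause was not tested. EGR2 and EGR4 are limited by depth, with under 100 counts in most libraries.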
